A study of Mus musculus with 13 samples.

Results

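Small structural RNAs work as RNA and are not translated. The RNAs described here were chosen by name and not by their values: the 7SK RNA (Rn7sk), the 7SL RNAs Rn7s1 and Rn7s2, the ribozyme RNAs Rmrp and Rpph1, the Y RNAs Rny1 and Rny3, and the minor spliceosomal RNAs Rnu11 and Rnu12. Of these 9 RNAs, 8 had a row among the 54513 gene symbols of the table, and all 8 passed the filter on low counts. Rn7sk was not analysed here. Counts differed widely among the 8. In saline lungs Rny3 averaged 5588 CPM (counts scaled to a common library total), whereas Rpph1 averaged 26.3 CPM. Most of Rpph1 overlaps another gene on the same strand, so its low count may not show its level.

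The lungs came from male C57Bl/6 mice, 7 to 8 weeks old, given either bleomycin or saline. The drug bleomycin damages DNA, injures the alveoli and is used in mice to produce lung fibrosis. Lungs at day 21 were formalin-fixed and paraffin-embedded, and total RNA of a 10 µm section was sequenced. There were 8 bleomycin libraries, of which 4 (replicates 5 to 8) belonged to batch 1 and 4 (replicates 1 to 4) to batch 2. All 5 saline libraries belonged to batch 1. The labels number the samples but do not tie them to animals, so the spread behind each p-value may be partly technical. What the batch label stands for is not given.

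Total counts were 21727502 to 28885129 in batch 1 bleomycin, 6337147 to 12982422 in batch 2 bleomycin and, for saline, 9527580 to 26043735. Bleomycin replicate 8 has a title that says control, while its treatment label and library name say bleomycin. It held 8202 CPM of the matrix gene Fn1, against 369 to 450.1 CPM in saline libraries, and it stayed in the bleomycin group. The lung markers Sftpc, Scgb1a1, Ager and Epas1 were present in every library, with Sftpc at 979 to 2269 CPM in batch 1 bleomycin, 1601 to 4082 CPM in batch 2 bleomycin and 2926 to 4366 CPM in saline. Markers of other cells varied among the libraries. In batch 1 bleomycin, 3 red blood cell markers summed to 45.9 to 56.6 CPM. The sums were 22.6 to 171 CPM in batch 2 bleomycin and 15.1 to 29.8 CPM in saline, and none of the markers was at 0 in any library. Batch 1 bleomycin lay above saline in these sums, while batch 2 bleomycin overlapped it. The heart markers Myh6 and Tnni3 summed to 373 to 2718, 60.3 to 1933 and 281 to 522.5 CPM in the same order of sets. Their ranges overlapped between all sets. The part of these markers in the results was not tested.

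Most of these RNAs are made by RNA polymerase III, while U11 and U12 are made by RNA polymerase II. The 7SL RNA is the scaffold of the signal recognition particle, which directs ribosomes that make secreted and membrane proteins to the endoplasmic reticulum. Rpph1 is the RNA of RNase P, which trims the leading end of transfer RNA precursors, and Rmrp is the RNA of the related RNase MRP, which acts in the processing of ribosomal RNA. Y RNAs are bound by the Ro60 and La (Ssb) proteins. U11 and U12 recognise the start and the branch site of the rare minor introns.

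The Y RNAs and the minor spliceosomal RNAs are shown here. Among the 8 RNAs they had the largest falls in batch 1 bleomycin lungs, where the 7SL RNAs were also lower. The sequences are those of the GENCODE M21 transcripts (mouse build GRCm38, sense strand). Since the counts were made on mm39, only chromosomes are given. Rny1 (112 bases) and Rny3 (102 bases) both lie on chromosome 6. Capitals mark the stretches of at least 8 bases that both Y RNAs share, 28 bases in each.
Rny1: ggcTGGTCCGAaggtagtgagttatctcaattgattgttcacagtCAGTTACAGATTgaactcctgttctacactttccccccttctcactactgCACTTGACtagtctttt
Rny3: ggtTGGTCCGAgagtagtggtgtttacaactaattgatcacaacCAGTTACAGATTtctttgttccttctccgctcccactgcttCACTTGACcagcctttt

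Rnu11 (134 bases, chromosome 4) and Rnu12 (151 bases, chromosome 15) both hold the run AATTTTT, in capitals, which serves in such RNAs as the landing site of the Sm protein ring. In Rnu12 the capitals also mark GTAAGGAA, the stretch that pairs with the branch site of minor introns. Of 1383 annotated small nuclear RNA transcripts, searched on the sense strand, 83 (6.0%) held AATTTTT and 9 (0.65%) held GTAAGGAA.
Rnu11: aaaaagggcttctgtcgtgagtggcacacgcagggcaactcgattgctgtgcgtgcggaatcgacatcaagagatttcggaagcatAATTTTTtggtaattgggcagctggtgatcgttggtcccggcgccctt
Rnu12: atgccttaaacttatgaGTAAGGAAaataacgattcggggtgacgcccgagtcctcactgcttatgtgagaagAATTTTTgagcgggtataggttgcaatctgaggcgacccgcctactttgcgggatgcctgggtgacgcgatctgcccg

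The 7SL genes Rn7s1 and Rn7s2, both on chromosome 12, are annotated at 300 bases each and had 0 mismatches, so they cannot be told apart by sequence. On the same strand, 2 annotated miRNA genes overlap each of them, by 70 and 77 bases.

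A read from either 7SL gene matches both, and how such reads were counted is not given in the sources used here. The split between Rn7s1 and Rn7s2 is therefore uncertain, and so is the level of either. Transcripts of other symbols with at least 90% identity over 80% of the length were annotated for Rny1 (2), Rnu11 (3) and Rnu12 (3). Those of Rnu11 include Gm28872, which covers Rnu11 itself on the opposite strand and is not a separate copy. The 7SL RNAs also matched Gm24105 within these limits. No other symbol met them for Rny3, Rmrp or Rpph1. Rmrp itself is annotated both as a ribozyme of 271 bases and as a longer RNA of 281 bases on the same strand. How the Rmrp row treats these entries is not given. Rmrp overlaps Ccdc107 on the opposite strand by 164 bases, Rnu11 lies wholly within Gm28872 on the opposite strand, and Rpph1 overlaps Ccnb1ip1 on the same strand by 284 bases. The strand setting of the counting is not given, so reads within the shared bases of the opposite-strand pairs cannot be assigned with certainty. For Rpph1 and Ccnb1ip1, on the same strand, no strand setting would separate such reads. How they were counted is not given, so the level of Rpph1 is uncertain.

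Within batch 1, bleomycin lungs were compared with saline lungs to ask how these RNAs differed in injured tissue. Both Y RNAs, both minor spliceosomal RNAs and both 7SL RNAs were lower in bleomycin lungs: 6 of the 8 fell, 0 rose and 2 did not pass. The 7SL genes have the same sequence, so their calls are not separate. Over all 20468 genes tested, 13.4% were lower and 17.5% were higher. The median log2 change was -1.695 over the 8 RNAs and 0.03 over all genes. Tests are edgeR quasi-likelihood tests with Benjamini-Hochberg adjusted p, called under 0.05. In bulk tissue, fewer cells of a type and less RNA per cell cannot be told apart.

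Rny1 stood at 209, 457, 429 and 204 CPM in the batch 1 bleomycin libraries, against 1687, 4321, 1277, 1398 and 900.2 CPM in the saline libraries. Every bleomycin library lay below every saline library. The fitted change was -2.56 on the log2 scale (SE 0.49), 5.90-fold lower (edgeR adjusted p = 0.002936). Rny3, the more abundant Y RNA, had 752, 1406, 1686 and 638 CPM in batch 1 bleomycin, against 5901, 10790, 4109, 4635 and 2508 CPM in saline. These groups did not overlap either, and the change was -2.32 (SE 0.45, edgeR adjusted p = 0.002835). Saline replicate 2 was the highest library for both Y RNAs.

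Rnu11 had 70.1, 85.6, 141 and 115 CPM in batch 1 bleomycin, against 387, 878, 316, 313 and 189 CPM in saline. Its change was -2.02 on the log2 scale (SE 0.435, edgeR adjusted p = 0.005428), with every bleomycin value below the lowest saline value. Rnu12 had 155, 193.5, 275 and 118 CPM in batch 1 bleomycin, against 590.2, 1281, 555, 569 and 418 CPM in saline. It was 3.68-fold lower (log2 change -1.88, SE 0.35, edgeR adjusted p = 0.002089), again without overlap between the groups.

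For the 7SL RNAs, Rn7s1 had 22.1, 34.4, 38.65 and 37.4 CPM in batch 1 bleomycin, against 71.3, 169, 68.7, 63.3 and 45.5 CPM in saline. Its log2 change was -1.33 (SE 0.34, edgeR adjusted p = 0.01284). Rn7s2 had 22.45, 35.9, 28.8 and 37.2 CPM in batch 1 bleomycin, against 47.2, 79.4, 46.3, 50.03 and 44.5 CPM in saline, a change of -0.78 (SE 0.185, edgeR adjusted p = 0.005815). Neither overlapped between these groups. In all, 6 of the 8 RNAs had every batch 1 bleomycin library below every saline library, as did 11.3% of all genes tested.

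The ribozyme RNAs did not pass. Rmrp had 896, 1039, 1107 and 2100 CPM in batch 1 bleomycin, against 1495, 2540, 1548, 1697 and 1533 CPM in saline. Bleomycin replicate 8, the library with conflicting labels, held the 2100 CPM and overlapped the saline libraries, which the other 3 bleomycin libraries did not. The log2 change was -0.455 (SE 0.23, edgeR adjusted p = 0.1515), and without bleomycin replicate 8 it was -0.83 (edgeR adjusted p = 0.001832). Rpph1 had 5.07, 6.67, 7.56 and 17.1 CPM in batch 1 bleomycin, against 18.2, 73.75, 15.6, 17.4 and 6.325 CPM in saline, and the groups overlapped. Its log2 change of -1.51 (SE 0.67) had an edgeR adjusted p of 0.115. Without saline replicate 2, which held the 73.75 CPM, its log2 change was -0.715.

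**Figure D1:**
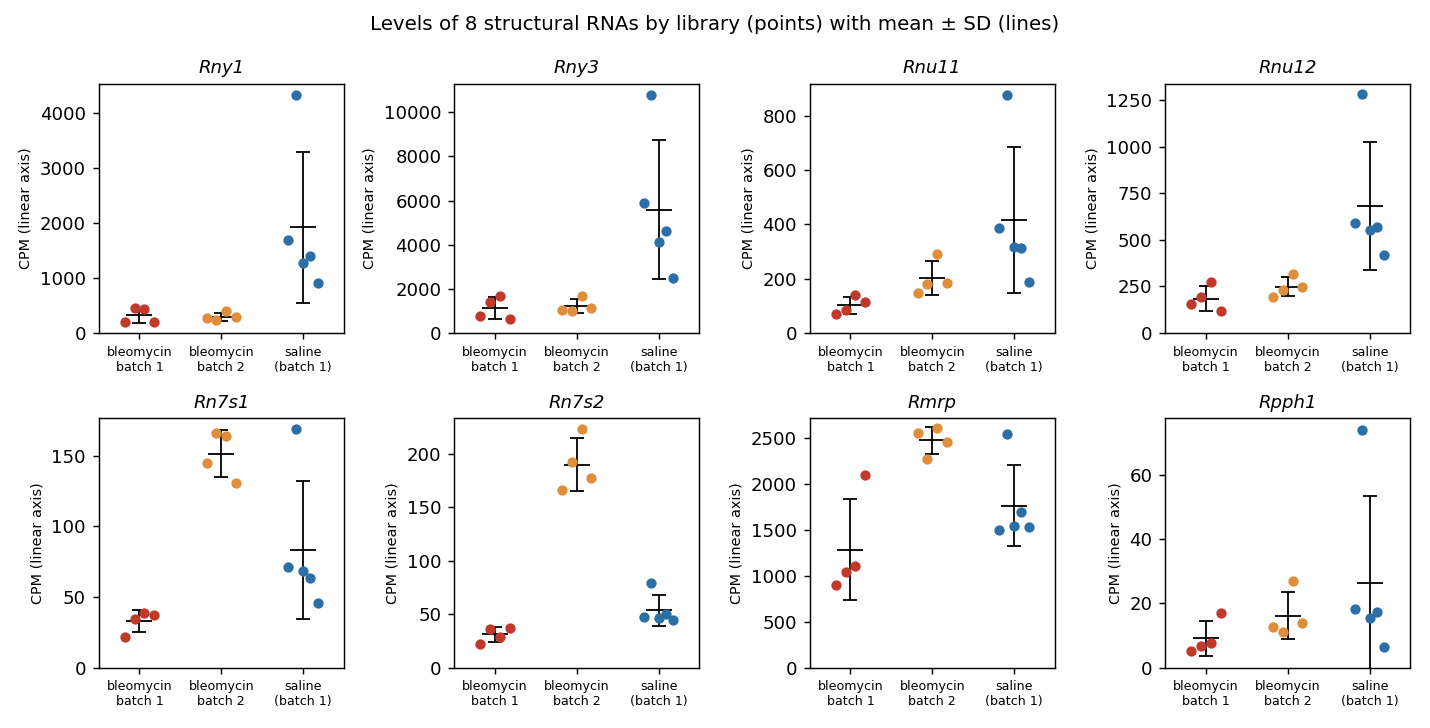
Level of each RNA in CPM on a linear axis from 0, by library (points) with the mean and SD of each set (lines; the SD of Rpph1 in saline runs below 0 and is cut at the axis). Rny1 lies at 204 to 457 CPM in batch 1 bleomycin, 228 to 397 CPM in batch 2 bleomycin and 900.2 to 4321 CPM in saline, while Rn7s2 is highest in batch 2 bleomycin at 166 to 223 CPM.

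Batch 2 holds bleomycin lungs only, so its libraries could be set against saline, where batch and treatment cannot be told apart, and against the batch 1 bleomycin libraries. Against the same saline libraries, 3 of the 8 RNAs were lower (Rny1, Rny3 and Rnu12), 1 was higher (Rn7s2) and 4 did not pass. Over all genes tested, 13.2% were lower and 15.7% were higher in that comparison. The median log2 change was -0.855 over the 8 RNAs and -0.015 over all genes. This comparison shares its saline libraries with the first one, so the values of each are given side by side.

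Rny1 had 267, 228, 397 and 286 CPM in batch 2 bleomycin, all below the lowest saline value of 900.2 CPM. Its log2 change was -2.70 (SE 0.50), beside -2.56 for batch 1 bleomycin against saline (edgeR adjusted p = 0.002423 for batch 2). Rny3 had 1042, 992, 1676 and 1142 CPM in batch 2 bleomycin, also below every saline library, with a change of -2.20 (SE 0.45, edgeR adjusted p = 0.00394). Rnu12 had 196, 232, 317 and 246 CPM in batch 2 bleomycin, below all saline libraries, with a change of -1.46 (SE 0.345, edgeR adjusted p = 0.008572). These 3 RNAs were the ones whose 8 bleomycin libraries all lay below all 5 saline libraries, as did 6.53% of all genes tested. Rnu11 had 148, 181, 293 and 185 CPM in batch 2 bleomycin. Its lowest saline library, at 189 CPM, lay below 1 of these values, and the change of -1.04 (SE 0.42) had an edgeR adjusted p of 0.08877.

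The 7SL RNAs took the opposite direction in batch 2. Rn7s2 had 166, 192, 223 and 177 CPM in the batch 2 bleomycin libraries, all above the highest saline value of 79.4 CPM. Its level was 3.56-fold higher than in saline (log2 change 1.83, SE 0.18, edgeR adjusted p = 1.188e-05). Rn7s1 had 145, 166, 164 and 130.5 CPM in batch 2 bleomycin and overlapped saline only through saline replicate 2 at 169 CPM. Its change against saline was 0.86 (SE 0.33, edgeR adjusted p = 0.07277), and without saline replicate 2 it was 1.24 (edgeR adjusted p = 0.0001659). Rmrp had 2560, 2277, 2604 and 2456 CPM in batch 2 bleomycin and a log2 change of 0.49 against saline (SE 0.23, edgeR adjusted p = 0.1263). Saline replicate 2, at 2540 CPM, lay among those values, and without it the change was 0.62 (edgeR adjusted p = 0.03604). Rpph1 had 12.6, 11.1, 27.05 and 14.1 CPM in batch 2 bleomycin, within the saline range, and did not pass (log2 change -0.665, SE 0.66, edgeR adjusted p = 0.4993).

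Between the bleomycin sets, batch 2 over batch 1, both 7SL RNAs were higher and the other 6 did not pass. In this comparison 0.547% of all genes tested were higher and 1.13% were lower, and the median log2 change was 0.895 over the 8 RNAs and -0.031 over all genes. Rn7s1 averaged 151 ± 16.8 CPM in batch 2 and 33.1 ± 7.58 CPM in batch 1 bleomycin (SD, n = 4 each), a log2 change of 2.19 (SE 0.36, edgeR adjusted p = 0.01312). Rn7s2 averaged 189.6 ± 24.6 CPM in batch 2 and 31.1 ± 6.85 CPM in batch 1 bleomycin, a change of 2.61 (SE 0.20, edgeR adjusted p = 2.163e-05). Rmrp and Rnu11 also had every batch 2 library above every batch 1 bleomycin library. The share of all genes tested with that separation was not computed, so it is given as a description only. Rmrp averaged 2474 ± 145 CPM in batch 2 and 1285 ± 550.3 CPM in batch 1, with a log2 change of 0.945 (SE 0.24, edgeR adjusted p = 0.07338). Rnu11 averaged 202 ± 62.9 CPM in batch 2 and 103 ± 31.4 CPM in batch 1, with a change of 0.97 (SE 0.44, edgeR adjusted p = 0.3377).

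The Y RNAs had changes between batches that were small beside their error, while the change of Rnu12 was somewhat larger than its error and did not pass. Rny1 averaged 295 ± 72.4 CPM in batch 2 and 325 ± 137 CPM in batch 1 bleomycin, and its log2 change was -0.14 (SE 0.48, edgeR adjusted p = 0.9339). For Rny3 it was 0.11 (SE 0.44, edgeR adjusted p = 0.9403), and for Rnu12 it was 0.42 (SE 0.35, edgeR adjusted p = 0.6443). Rpph1 had a change of 0.845 with an SE of 0.70. These p-values do not show that the batches were alike in these RNAs.

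**Figure D2:**
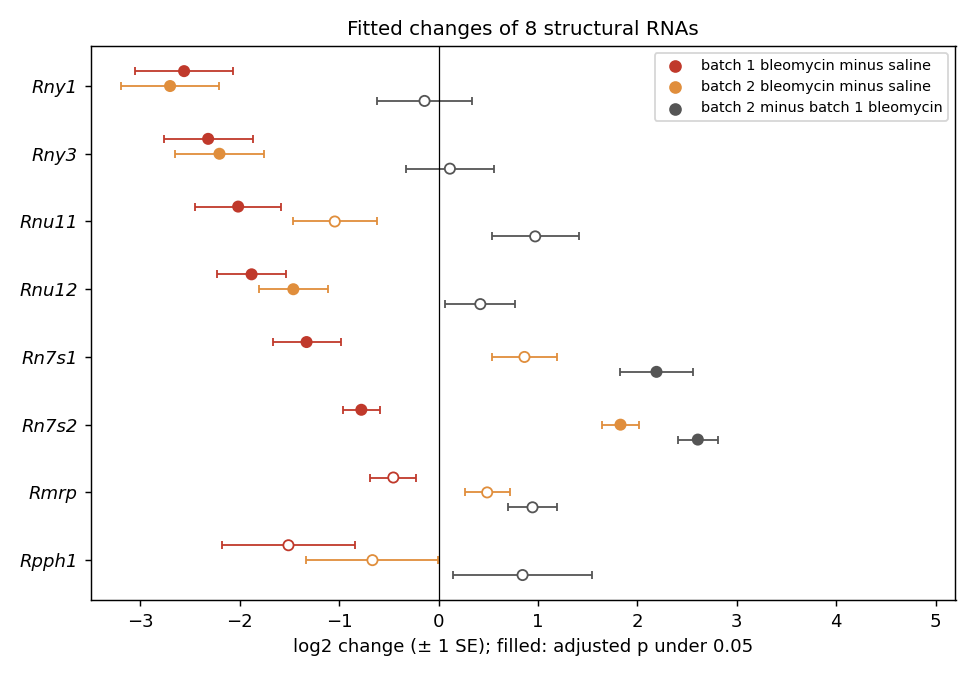
Log2 change of each RNA with 1 SE (horizontal axis) in batch 1 bleomycin against saline, batch 2 bleomycin against saline and batch 2 against batch 1 bleomycin, with filled points for adjusted p under 0.05. The Y RNAs lie at -2.70 to -2.20 in both comparisons with saline, whereas Rn7s2 lies at -0.78 for batch 1 and at 1.83 for batch 2.

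Levels between genes were compared per length, as CPM per kilobase of annotated transcript. By set means, Rny3 was the highest of the 8, with 10990 ± 4965 in batch 1 bleomycin (n = 4), 11890 ± 3090 in batch 2 bleomycin (n = 4) and 54790 ± 30900 in saline (n = 5), as mean CPM per kilobase ± SD. It lay above Rny1 in 13 of 13 libraries. In bleomycin replicate 8, Rmrp lay above Rny3, at 7474 against 6259 CPM per kilobase. Rny1 and Rmrp changed places: Rny1 was the higher in 1 of 4 batch 1 bleomycin, 0 of 4 batch 2 bleomycin and 5 of 5 saline libraries. By mean CPM per kilobase in each set, Rnu12, Rnu11, the 7SL RNAs and Rpph1 came below them. The places of the 7SL RNAs and Rpph1 depend on how reads shared between genes were counted, which is not given. Rnu12 lay above Rnu11 in 11 of 13 libraries, so these neighbours were not separated in each library. Rn7s2 lay above Rn7s1 in 2 of 4 batch 1 bleomycin, 4 of 4 batch 2 bleomycin and 0 of 5 saline libraries.

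Ratios of related RNAs within a library do not depend on library scaling. The ratio of Rn7s1 to Rn7s2 counts was 0.984, 0.957, 1.34 and 1.005 in batch 1 bleomycin, 0.872, 0.862, 0.737 and 0.738 in batch 2 bleomycin, and 1.51, 2.125, 1.48, 1.265 and 1.02 in saline. All 4 batch 2 ratios lay below all batch 1 bleomycin ratios. The difference, batch 2 minus batch 1 bleomycin, was -0.41 on the log2 scale, with an exact two-sided permutation p of 0.02857, the smallest that 4 against 4 libraries allow, and 0.1429 after adjustment over the 10 ratio and share tests. For batch 1 bleomycin against saline it was -0.44 (exact permutation p = 0.07937, adjusted 0.1587). Since Rn7s1 and Rn7s2 have the same sequence, this ratio depends on how shared reads were assigned, which is not given. It is not read as a difference between the genes.

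The ratio of Rny1 to Rny3 stayed within 0.255 to 0.325 in batch 1 bleomycin, 0.23 to 0.257 in batch 2 bleomycin, against 0.286 to 0.4004 in saline. Its log2 difference was -0.17 for batch 1 bleomycin against saline (exact permutation p = 0.2381) and -0.27 for batch 2 against batch 1 bleomycin (exact permutation p = 0.05714). Rnu11 to Rnu12 was 0.452, 0.442, 0.512 and 0.978 in batch 1 bleomycin, 0.756, 0.7795, 0.924 and 0.7515 in batch 2 bleomycin, against 0.452 to 0.6855 in saline. The ratio of 0.978 belonged to bleomycin replicate 8, apart from the other batch 1 bleomycin libraries. The log2 difference was -0.035 for batch 1 bleomycin against saline (exact permutation p = 0.9365) and 0.51 for batch 2 against batch 1 bleomycin (exact permutation p = 0.1429). Rmrp to Rpph1 was 122.5 to 175 in batch 1 bleomycin, 96.0 to 203 in batch 2 bleomycin, against 34.4 to 239.7 in saline, and its log2 differences of 0.695 and 0.12 had exact permutation p of 0.2381 and 0.6857. None of the 10 tests passed after adjustment, where the lowest adjusted p was 0.1429, and 2 had an unadjusted exact permutation p under 0.05. The smallest exact permutation p these library numbers allow, 0.01587, would not pass by itself after adjustment over 10 tests. The lack of a pass therefore does not show that the ratios or shares were alike.

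**Figure D3:**
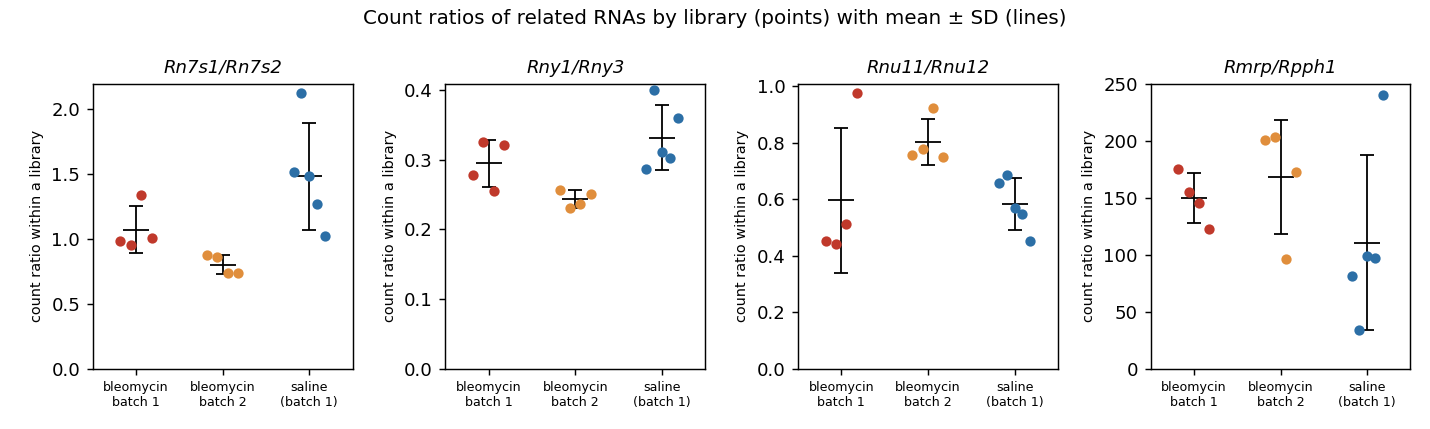
Ratio of the counts of 2 related RNAs within a library (vertical axis from 0), by library (points) with the mean and SD of each set (lines). The Rn7s1 to Rn7s2 ratio is 0.737 to 0.872 in batch 2 bleomycin, below the 0.957 to 1.34 of batch 1 bleomycin, and Rnu11 to Rnu12 has 1 batch 1 bleomycin library at 0.978.

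The 8 RNAs together made up 0.238% to 0.408% of all counts in batch 1 bleomycin, 0.401% to 0.5195% in batch 2 bleomycin, against 0.629% to 1.82% in saline libraries. Every bleomycin library lay below every saline library. The log2 difference for batch 1 bleomycin against saline was -1.62, with an exact two-sided permutation p of 0.01587, the smallest that 4 against 5 libraries allow, and 0.1429 after adjustment.

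The fall in batch 1 was shared by most other short RNAs. Of 580 other tested RNAs annotated as small nuclear, small nucleolar, Cajal body, ribozyme or miscellaneous RNA, 467 (80.5%) were lower in batch 1 bleomycin than in saline, 1 was higher and the median log2 change was -2.31. The 6 of 8 called lower here stand beside that share and not only beside the 13.4% over all genes. Short RNAs as annotated, 2630 genes with these 8 among them, took 0.846% to 1.81% of counts in batch 1 bleomycin, 1.26% to 1.68% in batch 2 bleomycin, against 2.48% to 6.94% in saline. Batch 2 bleomycin against saline gave 337 lower (58.1%) and 19 higher among the 580, with a median of -1.84. Between batch 2 and batch 1 bleomycin, 32 of the 580 were higher and 14 were lower, with a median of 0.13.

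Annotated length was related to change among the 8 RNAs. The Spearman correlation of length with log2 change, given as a description over 8 RNAs counted in the same libraries, was 0.755 for batch 1 bleomycin against saline, 0.802 for batch 2 bleomycin against saline and 0.635 for batch 2 against batch 1 bleomycin. Over the 580 other short RNAs it was 0.292, 0.109 and -0.108 in the same order. In batch 1 bleomycin against saline, their median log2 change was -2.49 for the 335 RNAs of 81 to 120 bases, -1.90 for the next class of up to 160 bases, -1.40 for the 60 in the class of up to 240 bases and -1.71 for the 17 in the class of up to 400 bases, so the change did not follow length step by step. Among the 8 RNAs the Y RNAs, the shortest, changed by -2.56 and -2.32, while the longest, Rmrp, Rn7s2, Rn7s1 and Rpph1, changed by -0.455, -0.78, -1.33 and -1.51. RNA fragment length was not analysed here, and its part in this pattern was not tested.

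**Figure D4:**
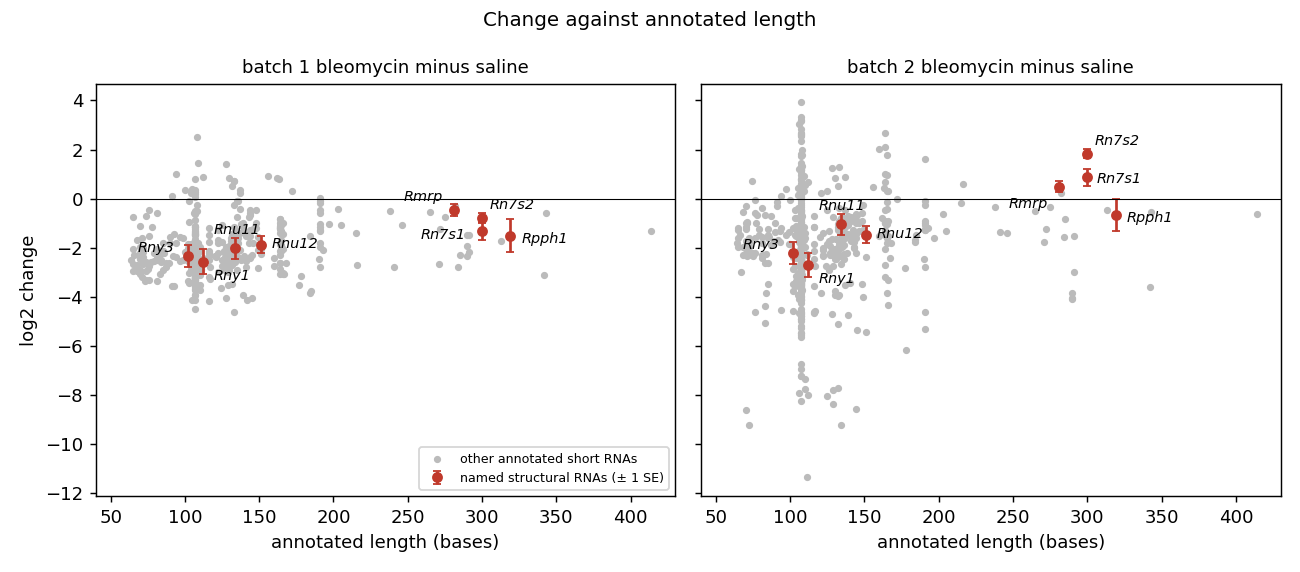
Log2 change (vertical axis) against annotated length in bases (horizontal axis) for the 8 RNAs with 1 SE (red) and the 580 other annotated short RNAs (grey), in batch 1 bleomycin (left) and batch 2 bleomycin (right) against saline. Rny1 and Rny3 lie at -2.56 and -2.32 on the left among the grey points, and Rn7s2 and Rn7s1 lie at 1.83 and 0.86 on the right.

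Across the 13 libraries some of the RNAs varied together, given as Pearson correlations of log2 CPM. No test was made, since all values come from the same libraries. The correlations pool bleomycin and saline libraries, so they include the differences between sets given above. Rny1 and Rny3 correlated at 0.99, Rny3 and Rnu12 at 0.978, Rn7s1 and Rn7s2 at 0.92, and Rmrp and Rn7s1 at 0.879. Rny1 and Rn7s2 correlated at -0.16. Others lay between: Rnu11 correlated at 0.919 with Rnu12, at 0.855 with Rpph1 and at 0.632 with Rn7s1. Among 13025 other genes, the 3 whose pattern was most like Rny1 were the small nuclear RNAs Gm24265 (0.996), Gm24407 (0.994) and Gm25099 (0.993). The nearest to Rnu11 included the small nucleolar RNA Snord55 (0.989), and the nearest to Rnu12 included Snora20 (0.989) and Snord49a (0.986). The genes nearest to Rn7s1, Rn7s2 and Rpph1 were 5S ribosomal RNA copies and small nuclear RNAs, at 0.946 to 0.98.

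Rmrp differed: its nearest genes were protein-coding, with Ccdc107 first (0.957), then Bccip (0.938) and Nbl1 (0.932). Ccdc107 is the gene that overlaps Rmrp on the opposite strand. It averaged 92.3 ± 4.82 CPM in batch 2 and 53.4 ± 20.4 CPM in batch 1 bleomycin, and was higher in batch 2 (log2 change 0.79, SE 0.185, edgeR adjusted p = 0.04699). That call was lost when any of 11 single libraries was left out. Without strand, reads within the 164 shared bases of Ccdc107 and Rmrp cannot be told apart.

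A row named 7SK was present beside the 9 names of the rule, and which gene or genes it sums is not given, so it is described apart and was chosen after its values were seen. The 7SK RNA holds the elongation kinase P-TEFb in an inactive complex. The row averaged 5589 ± 1063 CPM in batch 1 bleomycin (n = 4), 5074 ± 265.5 CPM in batch 2 bleomycin (n = 4) and 7557 ± 893 CPM in saline (n = 5). Batch 1 bleomycin had 5783, 6842, 5472 and 4259 CPM, and bleomycin replicate 6 overlapped the saline range of 6698 to 9003 CPM. The log2 change was -0.435 in batch 1 bleomycin against saline (SE 0.13, edgeR adjusted p = 0.01645) and -0.575 in batch 2 bleomycin against saline (SE 0.13, edgeR adjusted p = 0.003318).

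Genes that work with these RNAs were counted from the same fits. The share of all genes tested to set beside each count was 17.5% higher and 13.4% lower in batch 1 bleomycin against saline, and 15.7% higher and 13.2% lower in batch 2 bleomycin against saline. With lists this short, the counts are given as a description, and none is read as particular to its list. For the proteins of the 7SK particle, 0 of 7 passed in batch 1 bleomycin against saline, while in batch 2 bleomycin against saline 2 were higher: Cdk9, the kinase of P-TEFb (0.55, edgeR adjusted p = 0.01717; lost without bleomycin replicate 1 or saline replicate 2), and Larp7, which binds the end of 7SK (0.64, edgeR adjusted p = 0.01015). Of 9 tested proteins of the signal recognition particle and its receptor, 1 rose in batch 1, the scaffold protein Srp72 (0.35, edgeR adjusted p = 0.01318), a call lost without bleomycin replicate 8 (0.226, edgeR adjusted p = 0.07385). Their median log2 change was 0.07, beside -1.33 and -0.78 for the 7SL RNAs. None of 11 RNase P and MRP proteins passed in any comparison by edgeR. The nearest were Rpp14 (-0.32, edgeR adjusted p = 0.109) and Pop5 (-0.33, edgeR adjusted p = 0.1285) in batch 1.

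Of 3 listed symbols of Y RNA binding proteins, 2 had a row, and these passed in opposite directions. Ssb, the La protein, was higher (0.36, edgeR adjusted p = 0.02551) and Ro60 was lower (-0.31, edgeR adjusted p = 0.04747) in batch 1 bleomycin. Both also passed in batch 2 bleomycin against saline, at 0.49 and -0.44. In batch 1 the Ssb call was lost with upper-quartile factors and without bleomycin replicate 8 or saline replicate 1, 2 or 4, at 0.219 to 0.318. The Ro60 call was lost without bleomycin replicate 1, 2, 4, 7 or 8 or saline replicate 1, 3 or 5, at -0.322 to -0.225. In the fit of batch 1 libraries only, neither passed (edgeR adjusted p = 0.05526 for Ssb and 0.06464 for Ro60). Of 7 proteins of the U11/U12 particle, 2 were lower in batch 1, beside 13.4% of all genes: Zcrb1 (-0.27, edgeR adjusted p = 0.01895) and Rnpc3, which bridges U11 and U12 (-0.40, edgeR adjusted p = 0.02558). Both calls were lost without bleomycin replicate 7, at -0.242 and -0.35, and that of Rnpc3 also without saline replicate 1, at -0.384. In batch 2 bleomycin against saline both were also called lower, at -0.28 and -0.48, and the Zcrb1 call there was lost without bleomycin replicate 4 (-0.248, edgeR adjusted p = 0.0682) and with no filter on low counts (edgeR adjusted p = 0.08635).

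Of 27 subunits and factors of RNA polymerase III, 1 was lower in batch 1 bleomycin, Polr3g, an alternative subunit (-1.56, SE 0.365, edgeR adjusted p = 0.004354), and 0 were higher. In batch 2 bleomycin against saline, 5 were higher, beside 15.7% of all genes, and 2 were lower (Polr3f and Polr3g). Gtf3c1 (0.48, edgeR adjusted p = 0.001148) and Brf1 (0.39, edgeR adjusted p = 0.009742) were among the higher. The other 3, Gtf3c4, Polr3c and Snapc4, were each lost without saline replicate 2 (edgeR adjusted p = 0.06207, 0.07812 and 0.09293) and without bleomycin replicate 1, which also lost Polr3g (edgeR adjusted p = 0.08474), so that 2 higher calls were left in each case. Of 14 Integrator subunits, which cut the ends of small nuclear RNAs, 4 were higher in batch 1, beside 17.5% of all genes: Ints11, the nuclease (0.47), Ints1 (0.33), Ints7 (0.375) and Ints2 (0.41), with edgeR adjusted p of 0.024 to 0.03541. All 4 calls were lost without saline replicate 4 alone (edgeR adjusted p of 0.06406 to 0.1134). Those of Ints1, Ints7 and Ints2 were also lost with upper-quartile factors, those of Ints1 and Ints7 in the fit of batch 1 libraries only (edgeR adjusted p = 0.06884 and 0.06137), and others with other single libraries left out, down to 0.176 for Ints1 without bleomycin replicate 8. In batch 2 bleomycin against saline 2 of the 14 were higher, beside 15.7% of all genes. These were Ints1 (0.484, edgeR adjusted p = 0.00301) and Ints11 (0.565, edgeR adjusted p = 0.0107). Both kept that call with each single library left out (edgeR adjusted p at most 0.01321 and 0.04541).

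Of 21 other named structural RNAs, 12 had a row and 9 were tested. In batch 1 bleomycin against saline 5 were lower and 0 were higher. Over the 580 other short RNAs, these 9 among them, 80.5% were lower, and over all genes tested 13.4% were. Vaultrc5, the RNA of the vault particle, averaged 936 ± 441 CPM in batch 1 bleomycin and 2730 ± 1779 CPM in saline (-1.545, SE 0.45, edgeR adjusted p = 0.02338), and its call was lost without bleomycin replicate 5 or 8, at -1.39 and -1.37, in the fit of batch 1 libraries only (-1.58, edgeR adjusted p = 0.06111) and with no filter on low counts (edgeR adjusted p = 0.05033). Rnu5g, a U5 RNA of the major spliceosome, averaged 64.1 ± 22.5 CPM in batch 1 bleomycin, 10.7 ± 3.92 CPM in batch 2 bleomycin and 279 ± 186 CPM in saline. It was lower in batch 1 than in saline (-2.12, edgeR adjusted p = 0.005379) and lower in batch 2 than in batch 1 bleomycin (-2.55, edgeR adjusted p = 0.03218), and this second call was lost without any of 8 single libraries. Rnu1b2, Rnu6 and Rn7s6 were the other 3 that fell in batch 1, at -2.11, -2.41 and -1.46. Of these, Rnu1b2 and Rnu6 were near the floor, with 18 to 46 and 6 to 23 counts in the batch 1 bleomycin libraries. Without saline replicate 2, the change of Rnu6 was -1.62 (edgeR adjusted p = 0.04267). In batch 2 bleomycin against saline, 5 of the 9 were lower, Rn7s6 among them, and 0 were higher. Over the 580 other short RNAs 58.1% were lower in that comparison, and over all genes tested 13.2% were.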

How the data were processed

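The authors deposited raw counts per gene symbol. The submitters' processing notes name cutadapt 4.4, STAR 2.7.10b, featureCounts 2.0.3 and build mm39. Strand, multi-mapping and annotation settings are not known from the sources used. Of counts from 1 to 10, 78.4% to 86.1% were even, so read pairs may count as 2. The libraries used 8 ng of RNA and a SMARTer Stranded Total kit, per the labels. The authors' normalized values were not used.

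Counts were filtered with filterByExpr, scaled with TMM and tested in edgeR 4.0.16 (R 4.3.3, robust quasi-likelihood, batch and treatment as additive terms, all 13 libraries); SE is the log2 change over the square root of F. CPM use TMM-scaled totals. Ratios used a pseudocount of 1. No 2 libraries of a set were duplicates (chi-square per degree of freedom at least 10.1 over 22 pairs). Alternatives used RLE, upper-quartile or protein-coding scaling, no filter, DESeq2 1.42.0, limma-voom 3.58.1, no batch term, batch 1 only, a replicate block and each library left out. Named genes are the 9 RNAs, up to 4 of each list by lowest p in batch 1 bleomycin against saline, and the 3 most alike genes; list genes called in any comparison were added after values were seen. The fit was tested on simulated data. The RNAs, lists and tests were chosen with earlier results of these data known. GENCODE M21 gave types and lengths for 50671 of 54513 symbols. One sequence is not reported here.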

Additional observations from a re-analysis of the deposited data

Results flagged for a closer look

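Saline replicate 2 stood apart from the other saline libraries, with a gap to its nearest neighbour past the critical value for 5 samples, in 7 of the 8 RNAs: Rn7s1 (169 CPM), Rn7s2 (79.4 CPM), Rmrp (2540 CPM), Rpph1 (73.75 CPM), Rny1 (4321 CPM), Rnu11 (878 CPM) and Rnu12 (1281 CPM). It was the highest saline library in each, and Rny3 at 10790 CPM was highest there too without passing. Among ratios, Rn7s1 to Rn7s2 stood apart at 1.34 in bleomycin replicate 7, and Rnu11 to Rnu12 stood apart at 0.978 in bleomycin replicate 8 and at 0.924 in bleomycin replicate 3, each within its own batch. In all, 10 of 39 groups were flagged, where chance flags about 1 in 20 groups. The 7 levels come from 1 library and are not independent.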

How the results depend on the processing

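The numbers in the library names did not pair the libraries (correlations of same-numbered deviations -0.349 to 0.0406). With the replicate block, batch 1 bleomycin against saline rests on 1 pair and gave 39 genes and 0 of the 8 RNAs (6319 and 6 without it), and batch 2 against batch 1 bleomycin gave 11 genes and 0 RNAs (343 and 2 without it). For batch 2 against batch 1 bleomycin, DESeq2 called 737 genes and limma-voom 106, and 148 to 1093 were called with 1 library left out, the most without bleomycin replicate 8 and the fewest without bleomycin replicate 3. The cause was not tested. Without the batch term, which pools 8 bleomycin libraries, 3 RNAs reversed against saline (Rn7s1 0.138, Rn7s2 1.04, Rmrp 0.093), as did Ccdc107 (0.076) and Snrnp48 (-0.028). The replicate block reversed Rpph1 (-0.327), Rny3 (-0.574) and Rnu12 (-0.083) between batches, and Cdk9 (-0.256), Larp7 (-0.077), Snapc1 (-0.085), Srp68 (-0.121), Srprb (-0.021), Ssb (-0.053) and Zmat5 (0.126) in batch 1 bleomycin against saline. With 1 library left out, values ran from -0.331 to 0.069 for Rny1 and from -0.094 to 0.379 for Rny3 between batches, from -1.09 to 0.141 for Rpph1 in batch 2 against saline, and from -0.301 to 0.081 for Rnu11 to Rnu12 in batch 1 against saline; for Srp68 in batch 1 against saline they ran from -0.061, without bleomycin replicate 8, to 0.16.

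Beyond the replicate block, the 6 falls in batch 1 bleomycin kept their call in each other setting that has the batch term or only batch 1. RNAs that did not pass but did elsewhere were, in batch 1 against saline, Rpph1 (DESeq2, -1.595, adjusted p = 0.04176) and Rmrp (without bleomycin replicate 8, -0.831), Rmrp between batches (DESeq2, 0.967, adjusted p = 0.001794; without bleomycin replicate 8, 1.28; without saline replicate 2, 0.953), and, in batch 2 against saline, Rn7s1 (limma-voom, 1.06; without saline replicate 2, 1.24), Rmrp (without bleomycin replicate 8, 0.452; without saline replicate 2, 0.62) and Rnu11 (DESeq2, -1.09; without saline replicate 5, -1.23). Of 1396 alternative values of the list genes, 1221 held, 148 lost their call, 17 gained one and 10 reversed. Depth was lowest in batch 2, where Rpph1 rested on 76 to 320 counts.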
